A study of Mus musculus with 16 samples.

Results

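Dbp, Tef, Hlf, Nfil3, Bhlhe40, Bhlhe41, Ciart and Rora encode 8 transcription factors and cofactors that carry the circadian clock's rhythm to other genes. They were chosen by gene name from the mRNA table, with all annotated transcripts of a gene identifier summed, and make up 8 of its 27150 genes. Each name had 1 identifier, and all 8 passed the filter on low counts. RNA from epididymal white fat, the visceral fat pad along the epididymis, was sequenced in male C57BL/6 mice that were bought at 6 weeks of age and about 22 g and kept in a cycle of 12 h light. In the 4 groups, mice ate a normal diet or a high-fat diet (HFD, 60% fat), the latter alone, with the diabetes drug metformin or with resveratrol, a polyphenol made by plants. The HFD ran for 8 weeks before 6 weeks of treatment, so both drug groups carry the diet as well, and neither drug was given with the normal diet. The labels name 4 samples per group. The sources used here do not give the doses, the age at collection or the time of day at which the fat was taken, and a rhythmic gene's level depends on that time.

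The clock is a loop in which the activators CLOCK and BMAL1 (the product of Arntl) bind E-boxes, DNA sites with the letters CACGTG, and switch on genes whose products later shut them off. DBP, TEF and HLF, the PAR bZIP factors, are outputs of this loop that bind D-boxes and activate genes there, and NFIL3 (E4BP4) represses through the same D-boxes. BHLHE40 and BHLHE41 (DEC1 and DEC2) compete at E-boxes, CIART (CHRONO) represses CLOCK and BMAL1, and RORA activates genes with ROR elements, which the NR1D1 protein (REV-ERB alpha) represses. In fat the clock is known for its role in the daily timing of lipid storage and breakdown.

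The RefSeq promoter sequences (GRCm38.p6, from 250 bases before to 50 after each annotated start) held 8 entries for 7 of the members, with none for Bhlhe40. Each was searched on both strands for the E-box CACGTG, the D-boxes TTATGTAA and TTACGTAA and 2 ROR elements (AGGTCA or GGGTCA directly after AANT). An E-box stood in 7.15% of all 32851 promoters of this length. D-boxes stood in 0.938% (TTATGTAA) and 0.119% (TTACGTAA), and ROR elements in 0.219% (with AGGTCA) and 0.216% (with GGGTCA). Ciart had 3 E-boxes, Bhlhe41 had 1, and Tef had 1 before each of its 2 starts. The promoters of Dbp, Hlf, Nfil3 and Rora had no match to any of the 5 motifs. CACGTG reads the same on both strands and was counted once, and no matches overlapped. The 160 bases before the start are printed for Ciart, Bhlhe41 and Tef, to show where these letters lie, and for Nfil3, the member on which the metformin comparison turns. They read 5′ to 3′ on the gene's strand, with E-boxes in capitals. They cover chr3:95882229-95882388 (minus strand) for Ciart, chr6:145865421-145865580 (minus) for Bhlhe41, chr15:81802513-81802672 and chr15:81811254-81811413 (plus) for the upstream and downstream starts of Tef, and chr13:52981040-52981199 (minus) for Nfil3.
Ciart: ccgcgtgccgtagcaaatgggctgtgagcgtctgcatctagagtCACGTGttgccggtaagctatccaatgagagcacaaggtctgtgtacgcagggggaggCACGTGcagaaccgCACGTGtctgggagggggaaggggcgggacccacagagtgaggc
Bhlhe41: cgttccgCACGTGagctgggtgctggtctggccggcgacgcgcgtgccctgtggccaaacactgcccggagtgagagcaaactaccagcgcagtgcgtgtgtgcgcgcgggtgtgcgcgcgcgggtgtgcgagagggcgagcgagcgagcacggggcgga
Tef, upstream start: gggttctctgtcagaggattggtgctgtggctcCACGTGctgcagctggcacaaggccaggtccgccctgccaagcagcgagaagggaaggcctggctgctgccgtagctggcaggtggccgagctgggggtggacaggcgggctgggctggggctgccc
Tef, downstream start: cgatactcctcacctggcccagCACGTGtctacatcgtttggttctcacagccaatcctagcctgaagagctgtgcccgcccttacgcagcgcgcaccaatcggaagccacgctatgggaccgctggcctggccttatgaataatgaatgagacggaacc
Nfil3: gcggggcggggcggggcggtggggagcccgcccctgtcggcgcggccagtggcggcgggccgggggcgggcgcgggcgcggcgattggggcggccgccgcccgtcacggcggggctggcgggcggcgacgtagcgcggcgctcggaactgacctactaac
Relative to the RefSeq start, the first bases of the E-boxes lay at -116, -58 and -44 in Ciart and at -153 in Bhlhe41. They lay at -127 and -138 for the upstream and downstream starts of Tef. Counted transcripts can start elsewhere. ENSMUST00000032386, with 96.5% of Bhlhe41 counts, reaches position 145865558, within the stretch printed for that gene. ENSMUST00000109553 of Tef begins at position 81802421, before the stretch printed for the upstream start.

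Each library is named by its group and replicate, and levels are TMM-normalised counts scaled to a common library size (CPM), given as mean ± SD. In each of the HFD and metformin groups 1 count column carried a code that matched the group and no sample title, and it is called unmatched. HFD 4 and metformin 3 had no column of their own. Sums over marker lists, levels per kilobase, and lncRNA levels with the gene medians set beside them carry no TMM factor. Total mRNA counts ranged from 13350585 to 20531032 per library. In 1 library, resveratrol 4, adipocyte markers summed to 1645 CPM, against 27640 to 54620 CPM in the others, and the epididymal secretory gene Crisp1 had 11520 CPM. It was left out, so resveratrol has n = 3 and every other group n = 4. In 5 of the 15 libraries kept (normal diet 2, metformin 2, 4 and unmatched, resveratrol 2), 12 markers of motile ciliated epithelium, which lines parts of the male reproductive tract among other organs, summed to 448.5 to 1178 CPM (the only libraries kept with at least 3 times the median over all 16). The other 10 had 14 to 32 CPM. Of these markers, Foxj1 was at 0.470 CPM or below in those 10 libraries and at 47.7 to 95.8 CPM in the 5. Markers of epididymis principal cells summed to 25.2 to 62.5 CPM in all 4 metformin libraries and to 0.195 to 0.352 CPM in all 4 HFD libraries. Adipocyte markers (10 genes) had no gene past the threshold in any comparison between HFD and another group. Besides epididymal fat in the titles, the labels mention retinas at extraction and skeletal muscle at collection. Adipoq, a hormone gene of fat cells, had 1315 to 4044 CPM in the libraries kept, and 6 of the 12 marker genes of retina and skeletal muscle passed the filter on low counts. The titles give each sample its own code, and no label says more on their origin, so the p-values reflect the spread from library to library. Some codes within a group share their first part. In HFD these are the codes of HFD 1, 2 and 3 but not HFD unmatched. On the normal diet they are those of normal diet 1, 2 and 3 but not normal diet 4. The same holds for metformin 1 and metformin unmatched, and for resveratrol 1 and 2. No label says what that part stands for, so whether such libraries are independent cannot be told.

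Among the 8 genes, length-scaled levels (CPM per kilobase of transcript) put Tef first, with a median of 41.6 over the 15 libraries. Rora followed with 16.1, Dbp with 10, Bhlhe40 with 9.03, Nfil3 with 4.67, Bhlhe41 with 2.70, Hlf with 1.63 and Ciart with 0.875. Each gene's transcripts were divided by their own lengths and summed. Neighbours in this order overlapped in range, apart from Tef, which at its lowest (27.4) stood above the highest Rora value (19.8).

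**Figure D1:**
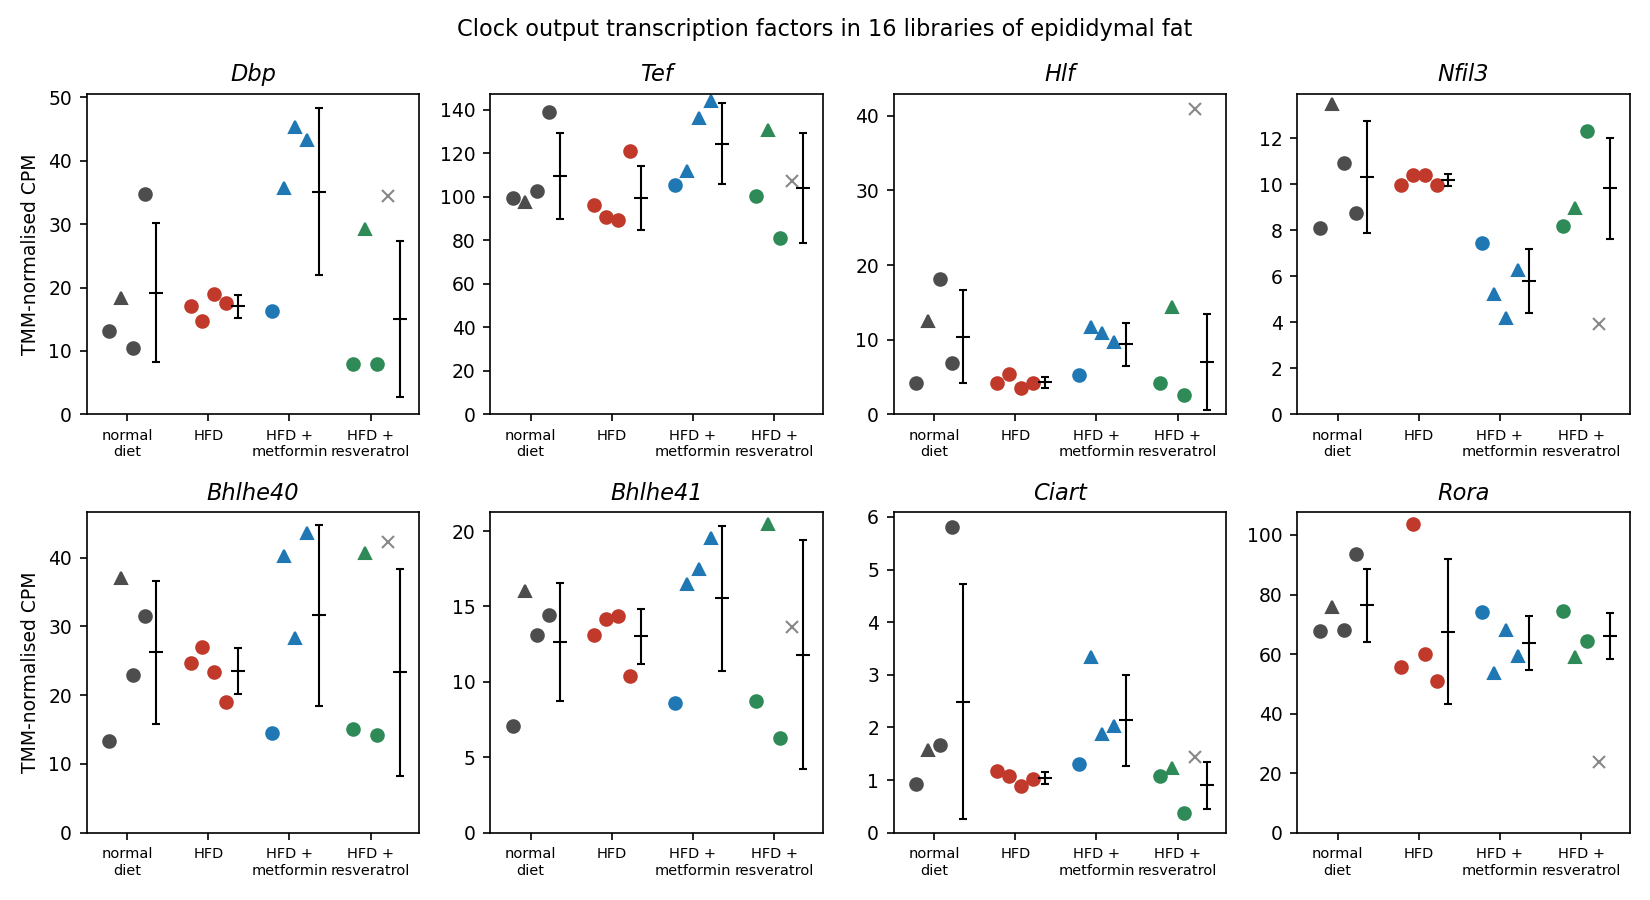
TMM-normalised CPM (vertical axis, from 0, own scale per gene) of the 8 genes in each library of the 4 groups (horizontal axis). Circles and triangles are libraries, triangles the 5 libraries rich in ciliated epithelium markers, the cross resveratrol 4, which was left out, and the bar beside each group its mean ± SD over the libraries kept. Nfil3 sits between 4.21 and 7.43 CPM in the 4 metformin libraries, below the other 11 libraries kept.

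Of the PAR bZIP activators, Dbp (chromosome 7, 45705088 to 45710203, GRCm38 as for all positions) had 13.1, 18.3, 10.5 and 34.8 CPM in normal diet 1 to 4. It had 17.1, 14.7, 18.96 and 17.5 CPM in HFD 1, 2, 3 and unmatched. In metformin 1, 2, 4 and unmatched it had 16.4, 35.7, 45.3 and 43.3 CPM, and in resveratrol 1 to 3 it had 7.94, 29.3 and 7.92 CPM. The HFD libraries lay close together, while metformin 2, 4 and unmatched, normal diet 4 and resveratrol 2 were the 5 highest. HFD averaged 17.1 ± 1.79 CPM and the normal diet 19.2 ± 10.9 CPM. The log2 fold change was -0.17 (SE 0.47, 95% confidence interval -1.18 to 0.84, edgeR adjusted p = 0.819). Metformin averaged 35.15 ± 13.2 CPM, a log2 difference from HFD of 1.05 (SE 0.47, interval 0.03 to 2.06) that did not pass the test after adjustment over all genes (edgeR adjusted p = 0.132). Resveratrol averaged 15.04 ± 12.3 CPM, a log2 difference from HFD of -0.18 (edgeR adjusted p = 0.871). Of the high libraries, 4 of 5 were among those rich in ciliated epithelium markers. Without the marker-rich libraries, which leaves 1 metformin library, the difference between metformin and HFD was -0.05. The part of these cells in it was not tested. The end of Dbp overlaps Sphk2, a sphingosine kinase gene, by 737 bases. Sphk2 had 30.6 to 51.0 CPM, and with no strand setting stated for the counting, reads in the overlap cannot be told apart.

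Tef (chromosome 15, 81802421 to 81826861) had 99.4, 97.4, 103 and 139 CPM in normal diet 1 to 4. It had 96.2, 90.6, 89.6 and 121 CPM in HFD 1, 2, 3 and unmatched, and 105.5, 112, 136 and 144 CPM in metformin 1, 2, 4 and unmatched. Resveratrol 1 to 3 had 100.4, 131 and 80.9 CPM. Tef was thus the most even of the 3 activators, and its groups overlapped throughout. Its log2 difference was -0.14 between HFD and the normal diet (SE 0.17, interval -0.51 to 0.22, edgeR adjusted p = 0.562). It was 0.33 between metformin and HFD (SE 0.17, interval -0.04 to 0.69, edgeR adjusted p = 0.185). Between resveratrol and HFD it was 0.07 (edgeR adjusted p = 0.866). The transcript ENSMUST00000023024, from the downstream start printed above, carried 61.5% of Tef counts over the 15 libraries. ENSMUST00000164673, which starts close to the upstream one, carried 22.8%. That upstream transcript had 17.8, 16.1, 13.9 and 22.2 CPM of mRNA counts (without a TMM factor) in HFD 1, 2, 3 and unmatched. It had 22.2, 36.04, 35.5 and 35.2 CPM in metformin 1, 2, 4 and unmatched. In the normal diet libraries it ranged from 20.2 to 34.9 CPM and in resveratrol from 20.0 to 26.7 CPM. The metformin libraries thus met the HFD range only at its top. Another upstream transcript, ENSMUST00000109553 (8.28% of Tef counts), ran differently. It had 10.6, 10.8, 8.33 and 17.7 CPM in HFD 1, 2, 3 and unmatched, above all 4 normal diet libraries (4.66 to 7.34 CPM). It had 7.67 to 10.7 CPM with metformin and 4.92 to 11.9 CPM with resveratrol, which overlapped HFD. Counts of transcripts that share exons rest on the authors' assignment of reads.

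Hlf (chromosome 11, 90336536 to 90390895) had 4.16, 12.5, 18.1 and 6.81 CPM in normal diet 1 to 4. HFD 1, 2, 3 and unmatched had 4.16, 5.33, 3.55 and 4.23 CPM, metformin 1, 2, 4 and unmatched had 5.29, 11.8, 10.9 and 9.63 CPM, and resveratrol 1 to 3 had 4.18, 14.4 and 2.55 CPM. The 4 HFD libraries were uniformly low, and every other group held at least 1 library near their level. HFD averaged 4.32 ± 0.741 CPM against 10.4 ± 6.22 CPM on the normal diet. The log2 difference was -1.27 (SE 0.53, interval -2.41 to -0.13), with an edgeR adjusted p of 0.0988. Metformin averaged 9.39 ± 2.87 CPM, 1.12 above HFD on the log2 scale (SE 0.53, interval -0.01 to 2.26, edgeR adjusted p = 0.146). With only the metformin and HFD libraries in the model this difference passed (1.14, edgeR adjusted p = 0.0469), and without resveratrol 2 the difference between HFD and the normal diet did (-1.27, edgeR adjusted p = 0.0428). Resveratrol stood at a log2 difference of 0.70 from HFD (edgeR adjusted p = 0.484), which was -0.36 without resveratrol 2. The 5 libraries rich in ciliated epithelium markers had 9.63 to 14.4 CPM of Hlf and the other 10 had 2.55 to 18.1 CPM, with medians of 11.8 and 4.203. The part of those cells was not tested.

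Nfil3 (chromosome 13, 52967209 to 52981073), the D-box repressor, was lower with metformin than in HFD and was the only 1 of the 8 members past the threshold (edgeR adjusted p under 0.05), where 13.9% of all genes tested were. In HFD 1, 2, 3 and unmatched it had 9.95, 10.4, 10.4 and 9.96 CPM (196, 203, 199 and 165 counts). In metformin 1, 2, 4 and unmatched it had 7.43, 5.23, 4.21 and 6.29 CPM (108, 89, 83 and 115 counts). The 4 metformin libraries lay below all 4 HFD libraries, whose coefficient of variation was 2.52%. In normal diet 1 to 4 it had 8.08, 13.5, 10.9 and 8.75 CPM, and in resveratrol 1 to 3 it had 8.18, 8.95 and 12.3 CPM. Metformin therefore also lay below every library of these groups. The fall from 10.2 ± 0.257 to 5.79 ± 1.38 CPM was 1.76-fold (log2 fold change -0.81, SE 0.21, interval -1.26 to -0.37, edgeR adjusted p = 0.0257). The log2 difference was -0.83 from the normal diet (SE 0.21, interval -1.28 to -0.39, edgeR adjusted p = 0.0601) and -0.76 from resveratrol (SE 0.22, interval -1.24 to -0.29, edgeR adjusted p = 0.709). Nfil3 was level between HFD and the normal diet (log2 difference -0.02, interval -0.46 to 0.42, edgeR adjusted p = 0.955). Between resveratrol and HFD it differed by -0.05 (interval -0.53 to 0.42, edgeR adjusted p = 0.917). In bulk tissue, fewer cells of a type that makes a transcript and less of it per cell cannot be told apart.

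The Nfil3 call between metformin and HFD held under 16 of 24 alternatives, and the log2 difference stayed negative in all 24 (-0.95 to -0.45). It did not pass with all 16 libraries (edgeR adjusted p = 0.122), with ciliated epithelium markers as a covariate (0.0775), or without HFD 1 (0.0652), HFD 2 (0.072), HFD 3 (0.0762), metformin 2 (0.0535) or metformin 4 (0.0533). Without the libraries rich in those markers it did not pass either (log2 -0.45, edgeR adjusted p = 0.376), with metformin 1 as the lone metformin library. Markers of other cells moved with the same contrast, where 7.84% of all genes tested were lower and 6.09% higher. Of 12 macrophage markers 11 fell with metformin (2 with all 16 libraries and none without those rich in ciliated epithelium markers), from a summed 1742 to 4125 CPM in HFD to 1180 to 1630 CPM. Within HFD, the unmatched library was the low one with 1742 CPM, against 3728, 3989 and 4125 CPM in HFD 1, 2 and 3 and 1434 to 2178 CPM on the normal diet. Its T, NK and innate lymphoid markers (49.0 against 121 to 128 CPM) and fibroblast markers (3568 against 6381 to 6432 CPM) were also below those of HFD 1 to 3, while its Nfil3 level was theirs. Of 4 epididymis principal cell markers tested 3 rose, and of 7 spermatogenic cell markers 2 rose. The latter summed to 1421 CPM in metformin 2 and to at most 33.5 CPM in the other libraries kept. Libraries with raised epididymis markers or low macrophage markers differed in their Nfil3 level. Resveratrol 4, the library left out of the model, had 22850 CPM of epididymis markers and 382.8 CPM of macrophage markers. Its Nfil3 level, 3.91 CPM, was the lowest of any library. Normal diet 2, with 925.6 CPM of ciliated epithelium markers and 38.3 CPM of epididymis markers, had the highest Nfil3 level of the 15 libraries. In the resveratrol libraries kept, macrophage markers summed to 1427 to 1507 CPM, with Nfil3 at 9.82 ± 2.20 CPM. Of these 12 markers 7 fell against HFD, where 3.09% of all genes did (none of the 12 without HFD 1, 2 or 3 or resveratrol 1, 2 or 3). Between HFD and the normal diet 8 of 12 macrophage markers rose (3 with all 16 libraries), where 13.8% of all genes did. Nfil3 was level there. The part of these cells in the Nfil3 difference was not tested.

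**Figure D2:**
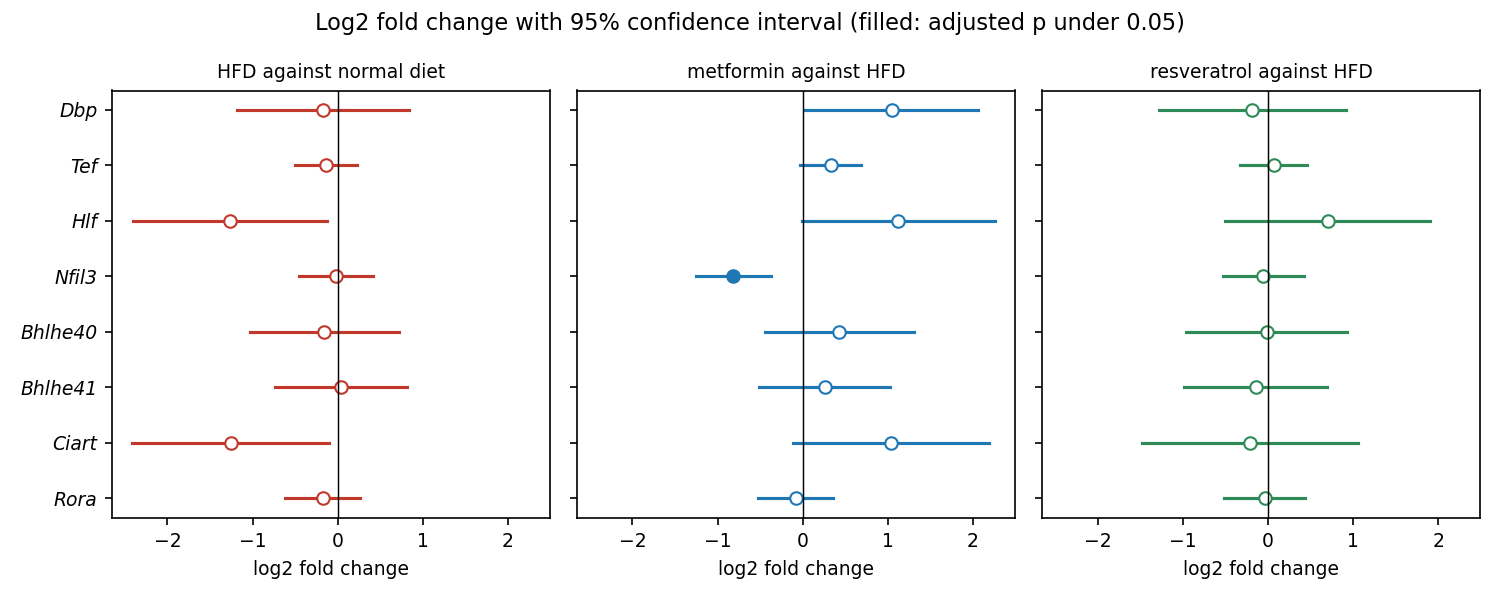
Log2 fold change of each gene with its 95% confidence interval (horizontal axis) in 3 comparisons, from the edgeR model over 15 libraries, with filled points for adjusted p under 0.05. Nfil3 in metformin against HFD, at -0.81, is the 1 filled point of 24.

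**Figure D3:**
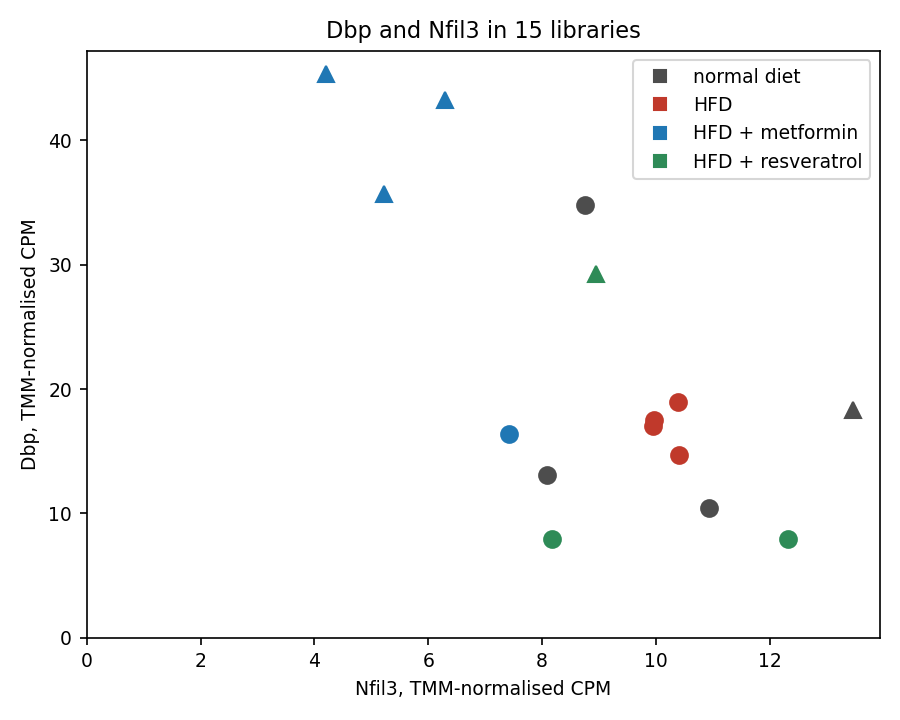
TMM-normalised CPM of Dbp (vertical axis) against Nfil3 (horizontal axis) in the 15 libraries, coloured by group, with triangles for the 5 libraries rich in ciliated epithelium markers. Metformin 2, 4 and unmatched form the corner of high Dbp (35.7 to 45.3 CPM) and low Nfil3 (4.21 to 6.29 CPM), and metformin 1 lies apart from them at 16.4 and 7.43 CPM.

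Because DBP activates and NFIL3 represses at the same kind of site, the log2 CPM of Nfil3 was subtracted from that of Dbp in each library, as a description. The differences in HFD 1, 2, 3 and unmatched were 0.77, 0.49, 0.86 and 0.81. In metformin 1, 2, 4 and unmatched they were 1.13, 2.74, 3.39 and 2.76, all above the HFD libraries. The normal diet ranged from -0.06 to 1.98 and resveratrol from -0.63 to 1.70, so both groups overlapped HFD and metformin. Metformin 2, 4 and unmatched were rich in ciliated epithelium markers, and metformin 1 was not. Resveratrol 2, the highest of its group, was also rich in them, as was normal diet 2, at 0.44. The part of these cells was not tested. Over the 15 libraries Dbp and Nfil3 levels had a Pearson r of -0.65, and -0.40 after the group means were removed. Dbp and Tef had r = 0.80 (0.78 within groups). All such correlations are across libraries that share depth and tissue composition.

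The E-box repressors Bhlhe40 (chromosome 6, 108660629 to 108666925) and Bhlhe41 (chromosome 6, 145858243 to 145865558) followed each other from library to library, with r = 0.95 over 15 libraries and 0.95 within groups. Bhlhe40 had 13.4, 37.02, 22.9 and 31.5 CPM in normal diet 1 to 4 and 24.7, 27.1, 23.4 and 19.01 CPM in HFD 1, 2, 3 and unmatched. It had 14.5, 40.2, 28.3 and 43.5 CPM in metformin 1, 2, 4 and unmatched and 15.1, 40.7 and 14.2 CPM in resveratrol 1 to 3. Both drug groups thus held libraries above and below the whole HFD range. Bhlhe41 had 7.08, 16, 13.1 and 14.5 CPM in normal diet 1 to 4 and 13.1, 14.2, 14.4 and 10.4 CPM in HFD 1, 2, 3 and unmatched. It had 8.60, 16.5, 17.5 and 19.5 CPM in metformin 1, 2, 4 and unmatched and 8.72, 20.5 and 6.26 CPM in resveratrol 1 to 3. Resveratrol 2, metformin 2, metformin unmatched and normal diet 2 were high for both genes. Metformin 4 stood below normal diet 4 for Bhlhe40 (28.3 against 31.5 CPM) and above it for Bhlhe41 (17.5 against 14.5 CPM).

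Neither gene passed a test. For Bhlhe40 the log2 difference was -0.16 between HFD and the normal diet (SE 0.41, interval -1.03 to 0.72, edgeR adjusted p = 0.808). It was 0.43 between metformin and HFD (SE 0.41, interval -0.45 to 1.30, edgeR adjusted p = 0.485) and -0.01 between resveratrol and HFD (edgeR adjusted p = 0.99). For Bhlhe41 the same differences were 0.04 (SE 0.36, interval -0.74 to 0.81, edgeR adjusted p = 0.953), 0.26 (SE 0.36, interval -0.52 to 1.03, edgeR adjusted p = 0.652) and -0.14 (edgeR adjusted p = 0.869). Differences within these intervals were not detectable with this spread. The 5 libraries rich in ciliated epithelium markers had 16 to 20.5 CPM of Bhlhe41 and the other 10 had 6.26 to 14.5 CPM, with no overlap. For Bhlhe40 the ranges were 28.3 to 43.5 and 13.4 to 31.5 CPM, and the remaining members overlapped too. How many of all genes separate these libraries was not counted, so the Bhlhe41 gap is description only. With these markers as a covariate the log2 difference between metformin and HFD became -0.52 for Bhlhe40 and -0.49 for Bhlhe41. It did not pass the test for either gene (edgeR adjusted p = 0.304 and 0.339). The part of these cells was not tested further.

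**Figure D4:**
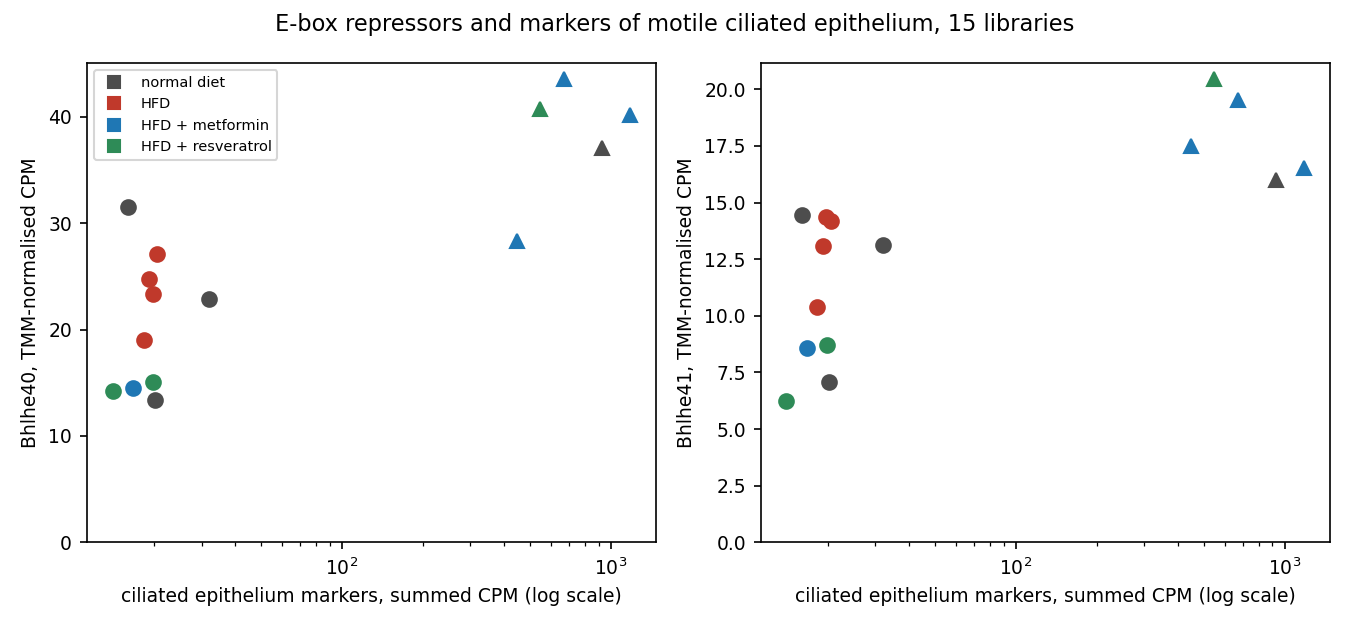
TMM-normalised CPM of Bhlhe40 (left) and Bhlhe41 (right) on the vertical axes against the summed CPM of 12 ciliated epithelium markers (horizontal, log scale) in 15 libraries, coloured by group. The 5 marker-rich libraries (triangles, 448.5 to 1178 CPM) hold 16 to 20.5 CPM of Bhlhe41, above the 6.26 to 14.5 CPM of the other 10 (circles), while the 2 sets overlap for Bhlhe40. The share of all genes with such a gap was not counted.

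Ciart (chromosome 3, 95878503 to 95882251), the CLOCK and BMAL1 repressor whose promoter held the 3 E-boxes, was the scarcest member. It had 12, 31, 31 and 99 counts in normal diet 1 to 4, which are 0.924, 1.57, 1.66 and 5.82 CPM. HFD 1, 2, 3 and unmatched had 23, 21, 17 and 17 counts (1.17, 1.08, 0.888 and 1.03 CPM). Metformin 1, 2, 4 and unmatched had 19, 57, 37 and 37 counts (1.31, 3.35, 1.88 and 2.02 CPM), and resveratrol 1 to 3 had 18, 18 and 6 counts (1.08, 1.24 and 0.383 CPM). All metformin libraries lay above all HFD libraries. The log2 difference was 1.04 (SE 0.53, interval -0.12 to 2.19) and did not pass (edgeR adjusted p = 0.184). Between HFD and the normal diet it was -1.26 (SE 0.54, interval -2.42 to -0.10, edgeR adjusted p = 0.106), with normal diet 4 far above the other 3. Without normal diet 4 it was -0.43 (edgeR adjusted p = 0.485). Resveratrol differed from HFD by -0.21 on the log2 scale (edgeR adjusted p = 0.871). Counts of this size leave wide errors.

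Rora (chromosome 9, 68653786 to 69388246), the activator at ROR elements, had 67.8, 75.7, 68.0 and 93.8 CPM in normal diet 1 to 4. It had 55.5, 103.7, 60.0 and 51.1 CPM in HFD 1, 2, 3 and unmatched, 74.1, 53.5, 68.2 and 59.5 CPM in metformin 1, 2, 4 and unmatched, and 74.4, 59.1 and 64.5 CPM in resveratrol 1 to 3. The groups overlapped, and HFD 2 stood above every other library. The log2 difference was -0.18 between HFD and the normal diet (SE 0.20, interval -0.61 to 0.26, edgeR adjusted p = 0.556), -0.08 between metformin and HFD (SE 0.20, interval -0.52 to 0.36, edgeR adjusted p = 0.807) and -0.03 between resveratrol and HFD (edgeR adjusted p = 0.947). Without HFD 2, Rora was lower in HFD than on the normal diet by 0.46 on the log2 scale and passed (log2 -0.46, edgeR adjusted p = 0.0427). Rora levels had a correlation of at most 0.204 in size with those of any other member. The span of the locus, introns included, also overlaps 40 transcripts of the lncRNA table, whose summed median was 249.3 CPM against 66.0 CPM of Rora. Picked in the same way, lncRNAs at Bhlhe41 had a median of 8.69 CPM (3.29 to 16.4) against 13.4 CPM of the gene. Those at Ciart had 0.653 CPM (0.294 to 2.82) against 1.26 CPM, and those at Hlf 1.35 CPM against 5.16 CPM. Those at Tef had a median of 10.6 CPM (6.70 to 15.7) against 104.6 CPM. Overlap of exons was not checked. Where exons of the 2 kinds overlap, their reads cannot be told apart without a stated strand setting. For Nfil3 the overlapping lncRNA was at most 0.0583 CPM.

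The high Rora level of HFD 2 came from the long transcript ENSMUST00000034766 (10878 bases, from the upstream start). It had 71.8 CPM of mRNA counts there and in normal diet 2 as well, against 23.55 to 55.15 CPM in the other 13 libraries. The short transcript ENSMUST00000113624 (2591 bases), which starts at position 69289682, had 25.9 CPM in HFD 2. It had 8.59 CPM in normal diet 2 and 23.98 to 35.3 CPM in the other 13 libraries. Over the 15 libraries the long transcript carried 59.6% of Rora counts and the short one 38.1%. Apart from normal diet 2, the short transcript thus had the narrower range of the pair.

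**Figure D5:**
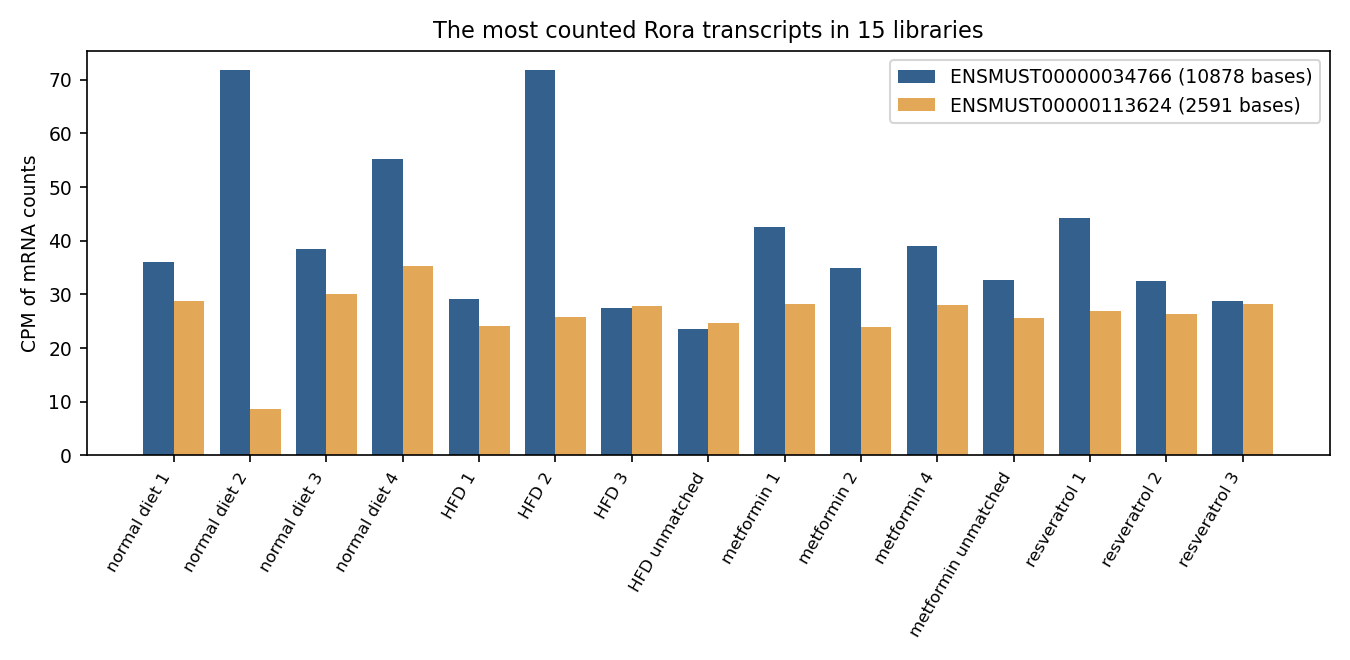
CPM of mRNA counts (vertical axis, from 0) of the long and the short Rora transcript in each of the 15 libraries (horizontal axis). The long transcript reaches 71.8 CPM in normal diet 2 and HFD 2, and the short one drops to 8.59 CPM in normal diet 2 and otherwise stays between 23.98 and 35.3 CPM.

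Counted over the members, none of the 8 passed between HFD and the normal diet (edgeR, adjusted p over all 17535 genes tested), where 23.1% of all genes did. The members past an unadjusted p of 0.05 were Hlf and Ciart, both lower in HFD, and DESeq2 also called none. Between metformin and HFD 1 of 8 passed, lower, where 13.9% of all genes did, 6.09% higher and 7.84% lower. Between resveratrol and HFD none of the 8 passed, with edgeR or DESeq2, and none had an unadjusted p under 0.05, where 4.17% of all genes were called, 1.09% higher and 3.09% lower. The median log2 difference of the members was -0.16, 0.38 and -0.04 in these comparisons, against -0.04, 0.04 and 0.04 over all genes. These comparisons share the HFD libraries. In a single test of any difference among the 4 groups, Nfil3 passed (edgeR adjusted p = 0.0346), and the other 7 had adjusted p of 0.149 (Ciart) to 0.81 (Bhlhe41), where 17.9% of all genes passed. The other group pairs called no member, against 1.71% of all genes between metformin and the normal diet, 0.148% between resveratrol and the normal diet and 0.0114% between metformin and resveratrol. Before adjustment, Nfil3 (metformin against both groups), Dbp (metformin against resveratrol) and Ciart (resveratrol against normal diet) had p under 0.05 in these pairs, and DESeq2 called Nfil3 between metformin and the normal diet (log2 -0.84, adjusted p = 0.00401). In the order of group means Nfil3 ran from metformin through resveratrol and HFD to the normal diet, and only metformin was separated from its neighbour by a gap between libraries. Ciart ran from resveratrol through HFD and metformin to the normal diet, with a gap between HFD and metformin. That Ciart difference did not pass (edgeR adjusted p = 0.184). For the other 6 members all groups overlapped. How many of all genes have such gaps was not counted, so the gaps are description only.

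Of 18 core clock genes, which all passed the filter, 7 were lower and 1 was higher in HFD than on the normal diet, where 9.34% of all genes were lower and 13.8% higher. Per1, a repressor of the loop, had 151 to 213 CPM on the normal diet and 75.0 to 108 CPM in HFD (log2 -1.09, edgeR adjusted p = 0.000659). Nr1d1 fell from 132 ± 47.0 to 64.2 ± 10.5 CPM (log2 -1.04, edgeR adjusted p = 0.00464) and Npas2, a partner of BMAL1, by 1.26 on the log2 scale (edgeR adjusted p = 0.00932). Arntl differed by -0.45 (edgeR adjusted p = 0.124). The count of lower genes was 3 with all 16 libraries and 10 without those rich in ciliated epithelium markers, and it was 5 without normal diet 2. Per1 and Npas2 passed under all 24 alternatives.

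Between metformin and HFD 5 of the 18 were higher and none lower, where 6.09% of all genes tested were higher and 7.84% lower. Nr1d1 rose to 119 ± 12.3 CPM (log2 0.89, edgeR adjusted p = 0.021), Per3 by 0.76 (0.0248) and Fbxl21 by 0.73 (0.0262). Arntl had 22.8, 15.7, 13.6 and 18.1 CPM in metformin 1, 2, 4 and unmatched and 22.1 to 27.4 CPM in HFD (log2 -0.44, edgeR adjusted p = 0.141). Per1 differed by 0.29 (edgeR adjusted p = 0.19). The count of 5 fell to 1 with all 16 libraries or without HFD 1, 2 or 3, to 2 with the ciliated epithelium covariate, to 3 without metformin 2 or 4 or the unmatched columns, and to 0 without the marker-rich libraries. Against the normal diet, metformin had 3 lower and none higher. These were Npas2 (-1.37, edgeR adjusted p = 0.0372), Arntl (-0.90, 0.0481) and Per1 (-0.80, 0.0238), and none was called with all 16 libraries, without the marker-rich libraries, with only the groups compared, or without normal diet 3, normal diet 4 or metformin 4. Only 1 was called without a filter on low counts, without the unmatched columns, or without normal diet 1 or 2, HFD 1, 2 or 3, metformin unmatched or resveratrol 1.

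Between resveratrol and HFD 2 of the 18 were higher, where 1.09% of all genes tested were, among them Fbxl21 (log2 0.86, edgeR adjusted p = 0.0369). Arntl differed by 0.37 (0.339), Per1 by 0.53 (0.0786) and Nr1d1 by 0.47 (0.24), with edgeR adjusted p in parentheses. Neither call held with only the groups compared, without the marker-rich libraries, or without HFD 1, 2 or 3 or resveratrol 1, 2 or 3. The median log2 difference of the core clock list was -0.35, 0.21 and 0.26 in the 3 comparisons with HFD. Levels of Dbp and Arntl, whose product drives Dbp, were also set side by side. The log2 difference of Dbp minus Arntl was above 0 in normal diet 4 (0.36), metformin 2, 4 and unmatched (1.17, 1.73 and 1.26) and resveratrol 2 (0.58). In the other 10 libraries it was between -2.25 and -0.22. Of these 5 libraries, all but normal diet 4 were rich in ciliated epithelium markers, and normal diet 2, also rich in them, had -1.06.

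Of 8 reported targets of PAR bZIP factors, 1 passed between HFD and the normal diet, where 23.1% of all genes tested did. Cyp2b10, a drug-metabolising cytochrome P450, fell from 1.94 ± 0.768 to 0.580 ± 0.348 CPM (log2 -1.74, edgeR adjusted p = 0.0115). None passed between metformin or resveratrol and HFD, where 13.9% and 4.17% of all genes tested did. Of 8 other clock-controlled genes that passed the filter, 1 was lower in HFD than on the normal diet, where 9.34% of all genes were. This was Nampt, an enzyme of NAD synthesis (log2 -0.45, edgeR adjusted p = 0.0217), a call lost without normal diet 3 or HFD 1. With metformin 1 of the 8 was higher than in HFD, where 6.09% of all genes were. This was Usp2, a deubiquitinase, at 39.8 ± 46.8 against 5.86 ± 1.61 CPM (log2 2.76, SE 0.70, edgeR adjusted p = 0.0258). The 2 groups overlapped, the call was lost with all 16 libraries, with only the groups compared, with the ciliated epithelium covariate and without HFD 1, 2 or 3 or metformin 2, and without the libraries rich in ciliated epithelium markers the difference was 0.36. None of the 8 passed between resveratrol and HFD, where 4.17% of all genes did.

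The genes whose levels were most like those of a member over the 15 libraries were picked by Pearson r of log2 CPM. For Dbp they were Ifrd2 (0.91), Ppara (0.86), a nuclear receptor of fatty acid oxidation that is also on the list of PAR bZIP targets, and Irx1 (0.83). For Tef they were Mctp2 (0.85), Plac9b (0.85) and again Ppara (0.83). Hlf was most like Gdf10 (0.94), Cacnb2 (0.91) and Frem2 (0.90), and Nfil3 most like Gm12918 (0.87), the cell cycle inhibitor gene Cdkn1a (0.85) and Tnfaip6 (0.84). Bhlhe40 and Bhlhe41 headed each other's list, followed by Mt3 and Tspoap1 (0.91 and 0.90) for Bhlhe40 and by Napsa and Mgat3 (0.91 and 0.90) for Bhlhe41. Ciart (at most 0.83, with Slc25a48, Zfp219 and Sbf2) and Rora (at most 0.82, with CT025525.2, Fbxl12 and Nedd4) had the least close partners. These r values were selected as the highest among all genes tested. Rank correlations (Spearman) of the same pairs ran from 0.646 (Rora with CT025525.2) to 0.954 (Bhlhe40 with Bhlhe41). For Nfil3 with Cdkn1a the rank correlation was 0.679.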

How the data were processed

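The authors deposited whole-number counts per mRNA and per lncRNA transcript with FPKM values beside them, per the file headers. Tools listed in the submitters' processing notes are fastp and HISAT2, and the build is GRCm38. The sources used here do not give versions, the counting tool, the annotation release or the strand setting. The authors' FPKM served only to check that headers and values of 14 libraries belong together: the implied library total differed from the library's own counts by at most 0.0418%, against at least 0.489% for any other library. Of 16 count columns, 14 matched a sample title. The other 2 matched a group only and are called unmatched, and 4 FPKM columns of per-sample values were not used. A total of 5 broken records of mRNA transcripts were rejoined.

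Counts of 91879 transcripts were summed by gene identifier. edgeR 4.0.16 (R 4.3.3) was fitted to 15 libraries with its filter on low counts, TMM and a robust quasi-likelihood model with group as factor, leaving 17535 genes. Resveratrol 4 was left out because Crisp1 exceeded 1000 CPM. Tests were two-sided, p-values were adjusted over all genes tested (Benjamini-Hochberg, threshold 0.05), SE is the absolute log2 fold change over the square root of F, and intervals are 95%. The procedure was tested on simulated data. Log2 CPM for correlations and differences of levels used a prior count of 2 or none. Alternatives were DESeq2 1.42.0, its size factors in edgeR, other filters (none, or mean CPM of at least 1), other sets of libraries, a ciliated epithelium covariate and leaving out each library. The members and the lists were chosen with earlier results of these data known. Named were all 8 members in every comparison, up to 4 called genes with the largest change per list of clock or target genes, always Arntl, Per1 and Nr1d1, and 3 genes most like each member. The values of 1 gene that this rule names are not reported here. Marker lists served to describe composition.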

Additional observations from a re-analysis of the deposited data

Results flagged for a closer look

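In groups of 4, a highest or lowest library was tested for standing apart from the rest (Dixon's ratio). Chance flags about 1 in 20 of the 24 groups looked at, and 3 were flagged. Tef reached 139 CPM in normal diet 4, against 97.4 to 103 CPM in the other 3 libraries on that diet. Ciart reached 5.82 CPM in the same library, against 0.924 to 1.66 CPM. Dbp was also highest there within the normal diet, at 34.8 CPM, and the ciliated epithelium markers of that library were not raised. The code of normal diet 4 differs in its first part from those of the other 3 libraries on that diet. What that part stands for is not given. Rora reached 103.7 CPM in HFD 2, against 51.1 to 60.0 CPM in the other 3 HFD libraries, with the excess in its long transcript.

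In the library left out of the model, resveratrol 4, where fat cell markers were low and Crisp1 was at 11520 CPM, 2 members lay above every normal diet library. Hlf had 40.97 CPM, above the 18.1 CPM of normal diet 3, and Bhlhe40 had 42.3 CPM, above the 37.02 CPM of normal diet 2. How many of all genes lay above every normal diet library there was not counted, so this is description only. Levels of resveratrol 4 were scaled with a TMM factor from all 16 libraries, and those of the other libraries with factors computed without it. Nfil3 and Rora were at their lowest of all 16 libraries there, with 3.91 and 23.6 CPM. The other 3 resveratrol libraries had 2.55 to 14.4 CPM of Hlf, 14.2 to 40.7 CPM of Bhlhe40, 8.18 to 12.3 CPM of Nfil3 and 59.1 to 74.4 CPM of Rora.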

How the results depend on the processing

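No paired analysis was possible because the titles give each sample its own code and no replicate block shared by the groups. Of the members' log2 differences, 359 of those with 1 library left out and 211 under other alternatives kept direction and side of the threshold, and 23 and 18 changed sign, none of them past the threshold in the main model. The cause was not tested. The count of members called was 0 to 1 with 1 library left out, between HFD and the normal diet, between metformin and HFD and in the other pairs. Between metformin and HFD (1 in the main model) it was 0 with all 16 libraries, with the ciliated epithelium covariate and without the libraries rich in those markers, and 2 with only the groups compared. The other pairs had 1 with DESeq2, and the test over all groups 0 with all 16 libraries. The median ratio of Tef to Rora was 2.66 per kilobase and 1.49 from counts alone.

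Without the marker-rich libraries these log2 differences changed sign. For HFD against normal diet they were Nfil3 0.13 and Bhlhe40 0.052, for metformin against HFD Dbp -0.054, Bhlhe40 -0.69, Bhlhe41 -0.59 and Rora 0.14, and for resveratrol against HFD Tef -0.13, Hlf -0.35, Nfil3 0.014 and Rora 0.044. With the covariate they were Bhlhe40 0.11 for the diet, Bhlhe40 -0.52, Bhlhe41 -0.49 and Rora 0.036 for metformin, and Rora 0.0046 for resveratrol. With all 16 libraries Dbp was 0.23 and Bhlhe40 0.26 for resveratrol, and with only the groups compared Bhlhe40 was 0.014. With 1 library left out, those with a change of sign ranged for the diet from -0.38 to 0.27 (Dbp), -0.13 to 0.14 (Nfil3), -0.38 to 0.057 (Bhlhe40) and -0.17 to 0.17 (Bhlhe41), and for metformin from -0.18 to 0.20 (Rora). For resveratrol they ranged from -1.10 to 0.13 (Dbp), -0.13 to 0.23 (Tef), -0.36 to 1.11 (Hlf), -0.23 to 0.071 (Nfil3), -0.68 to 0.26 (Bhlhe40), -0.80 to 0.18 (Bhlhe41), -0.50 to 0.17 (Ciart) and -0.13 to 0.26 (Rora).

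The background moved too. Genes called numbered 4050 between HFD and the normal diet (1531 with all 16 libraries), and 2442 between metformin and HFD (4388 with DESeq2, 1541 without a filter, 179 with all 16, 1142 with only the groups compared, 474 with the covariate, 18 without marker-rich libraries, 469 to 3710 with 1 library left out). Between resveratrol and HFD it was 732 (2137 with DESeq2, 351 without a filter, 395 with all 16, 1855 without unmatched columns, 1 with only the groups compared, 1400 with the covariate, 17 without marker-rich libraries, 1 to 2066 with 1 library left out). The other pairs had 327 in all (1588 with DESeq2, 1 with all 16, 141 without unmatched columns, 28 with only the groups compared, 77 without marker-rich libraries, 104 to 545 with 1 left out). Ciart, with as few as 6 counts in a library, was the member most limited by depth.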
